A study of Homo sapiens with 6 samples.

Results

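The genes described here are the non-collagen part of the extracellular matrix and the enzymes that finish its fibres: adhesive glycoproteins, elastic fibre components, proteoglycans, hyaluronan synthases, lysyl oxidases and collagen-modifying enzymes. They were chosen by gene name, with no measured value in the rule, but with earlier results of these data known. Of the 57819 genes in the deposited table, 55 belong to the set. RNA was read from IMR90 ER:Ras cells, an established human lung fibroblast line in which oncogenic Ras is joined to part of the estrogen receptor. All cells, controls included, had received 200 nM 4-hydroxytamoxifen (4OHT) for 3 days, which switches the fused Ras on, and are described in the labels as senescent. The control group carried a scrambled siRNA and the knockdown group an siRNA that targets sin-lncRNA, a long noncoding RNA, with 3 libraries in each. The comparison addresses what loss of sin-lncRNA changes in these cells. A single siRNA name stands in the knockdown labels, so loss of the lncRNA and any other effect of that siRNA cannot be told apart. In the deposited table that name is followed by an ending which the sample labels lack and no source explains, so the knockdown columns were matched to samples by replicate number and the shared part of the name. The labels do not say whether replicates came from separate cultures, so p-values measure the spread between these libraries, which may be technical.

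Fibroblasts lay down fibronectin first, which cells stretch into fibrils through integrins and on which collagens and other glycoproteins assemble. Fibrillin microfibrils form the scaffold on which elastin is deposited, with fibulins and microfibril-associated proteins helping the assembly. Proteoglycans carry long sulfated sugar chains that hold water and bind growth factors. Inside the cell, prolyl and lysyl hydroxylases modify new collagen chains, and outside it, lysyl oxidases convert lysine side chains of collagen and elastin into the reactive groups that form crosslinks.

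Reads in genes numbered 30271192 to 50913672 in controls and 22117324 to 27882280 in knockdowns. The deepest knockdown library held fewer reads than the shallowest control, so depth and group cannot be told apart. The targeted lncRNA was at 3.70, 4.73 and 4.09 RPM (recovered reads scaled to a library of 1e+06 reads) in controls and 0.493, 0.640 and 0.534 RPM in knockdowns, or 13.3% of the control level. Of 10 fibroblast markers, all were expressed, with 5 higher and 4 lower in knockdown. Their summed level was 15865 to 17061 RPM in controls and 11621 to 11990 RPM in knockdowns, with COL1A1 the largest contributor by mean in both groups. All 7 immune markers stayed under 1 RPM in every library (summed 0.200 to 0.318 RPM in controls and 0.342 to 0.641 in knockdowns). Of 8 epithelial markers, 6 were under 1 RPM and KRT5 and SCGB1A1 were at 0 reads (summed 8.76 to 10.7 and 4.84 to 5.91 RPM). Of 6 endothelial markers, 4 were under 1 RPM (summed 15.6 to 19.0 and 11.2 to 11.9 RPM, mostly TIE1). Of 6 smooth muscle and pericyte markers, 1 was under 1 RPM (summed 351 to 381 and 257 to 296 RPM), and of 6 chondrocyte markers 4 were (summed 134 to 169 and 118 to 125 RPM, mostly SOX9). The part of these shifts in the results was not tested. In such bulk samples, fewer cells of a type and less RNA per cell cannot be told apart.

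Of the 55 genes, 49 averaged 10 or more normalized reads across the 6 libraries and were tested with limma across all 19048 genes that passed this filter. With sin-lncRNA knocked down, 30 of the 49 rose and 9 fell at a Benjamini-Hochberg adjusted p under 0.05, while 10 were not called. Calls were common in this experiment. Of all genes tested, 41% were called, 17.5% as higher and 23.5% as lower. The 49 matrix genes were called in 79.6%, 61.2% as higher and 18.4% as lower. Because the set was chosen with earlier results of these data known, this is not a blind comparison. Among protein-coding genes 48.6% were called, 22.2% as higher and 26.4% as lower. The matrix genes were also highly expressed. By control level per transcript length their median gene, FBLN1, stood at percentile 86 of the genes tested. Called shares at matched level were not compared. The median log2 fold change was 0.38 over the matrix genes, and -0.04 over all genes tested. Control and knockdown libraries did not overlap for 40 of the 49 (81.6%), beside 51.1% of all genes tested. The size of the change varied widely within the set. ASPN passed the filter on low values through the knockdown libraries alone, so its direction was fixed by that filter. Without it, 29 of 48 rose and 9 fell, with a median of 0.32 and a range of -0.81 to 2.36. Of these 48, the 6 that changed by a log2 fold change of at least 1 were MAMDC2, ELN, LOXL2, MATN2, SPARC and SDC2, all of them higher.

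**Figure D1:**
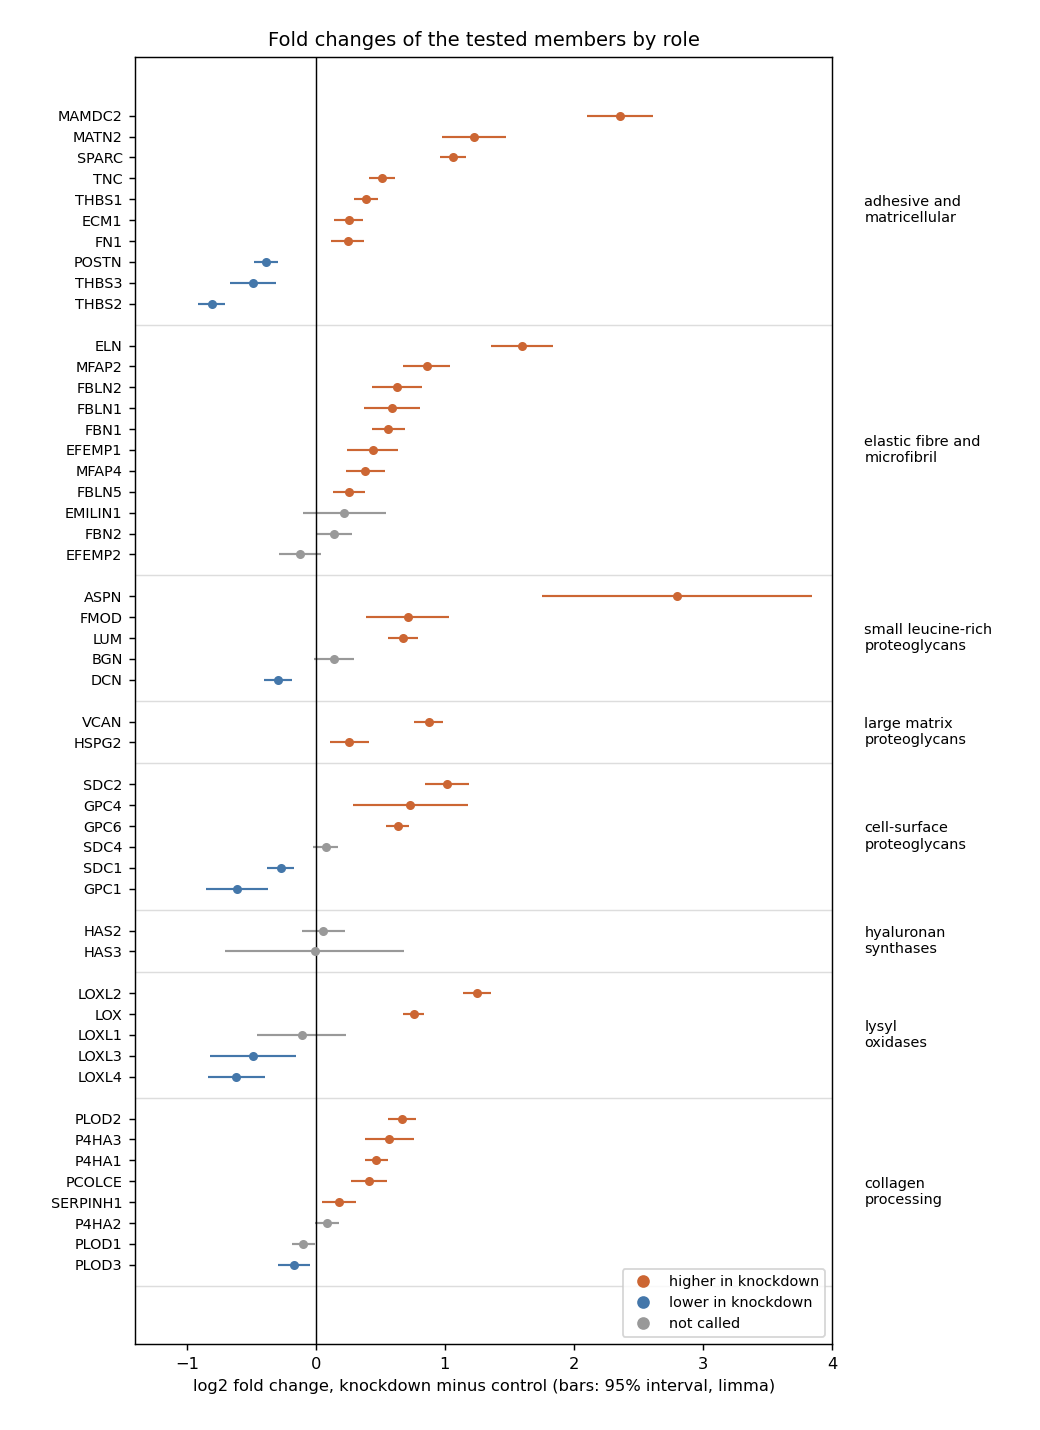
Log2 fold change (knockdown minus control, horizontal axis) of the 49 tested matrix genes, grouped by role, with the 95% interval from limma as bars and colour for the call. Elastic fibre genes lie at or above 0 except EFEMP2 at -0.12, whereas the lysyl oxidases spread from -0.62 to 1.25.

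The summed reads of the 55 genes took 3.92%, 4.13% and 3.87% of reads in the controls and 5.15%, 4.98% and 5.04% in the knockdowns. The knockdown share was 1.27 times as high, with no overlap (two-sided exact permutation p = 0.1, the smallest that 3 against 3 can give). FN1 alone held 2.50% ± 0.14 in controls and 3.00% ± 0.10 in knockdowns (SD, n = 3). Without FN1 the share went from 1.47% ± 0.01 to 2.06% ± 0.02. By role, the lysyl oxidases and the large matrix proteoglycans had the widest ratios of summed reads, at 1.93 and 1.78. The cell-surface proteoglycans kept nearly the same sum, with a ratio of 1.00, as reads gained by some members were offset by reads lost in others. Reads of the mitochondrial genome held 4.37% ± 0.26 and 4.84% ± 0.24.

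Levels were compared between genes as RPKM, which is RPM per kilobase of the longest annotated transcript. Which transcripts were expressed was not measured, so the order of genes depends on that choice. FN1 led in controls at 2743 ± 153 RPKM, followed by SPARC at 495 ± 22.6, POSTN at 422 ± 10.8, THBS1 at 360 ± 12.4 and TNC at 257 ± 10.4 (SD, n = 3), and each of these stood further from its neighbour than their SDs. SERPINH1 at 187 ± 10.5 and PLOD1 at 183 ± 1.26 did not differ beyond their spread. At the other end, ELN at 0.739 ± 0.075 and FMOD at 0.729 ± 0.062 were also within their spread, and ASPN was lowest of the genes tested at 0.0364 ± 0.0199 RPKM. In knockdowns SPARC reached 1033 ± 5.39 RPKM, THBS1 and TNC passed POSTN, which moved from position 3 to 5, and LOXL2 moved from position 9 to 6. The genes with the largest fold changes came from both ends of this order.

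**Figure D2:**
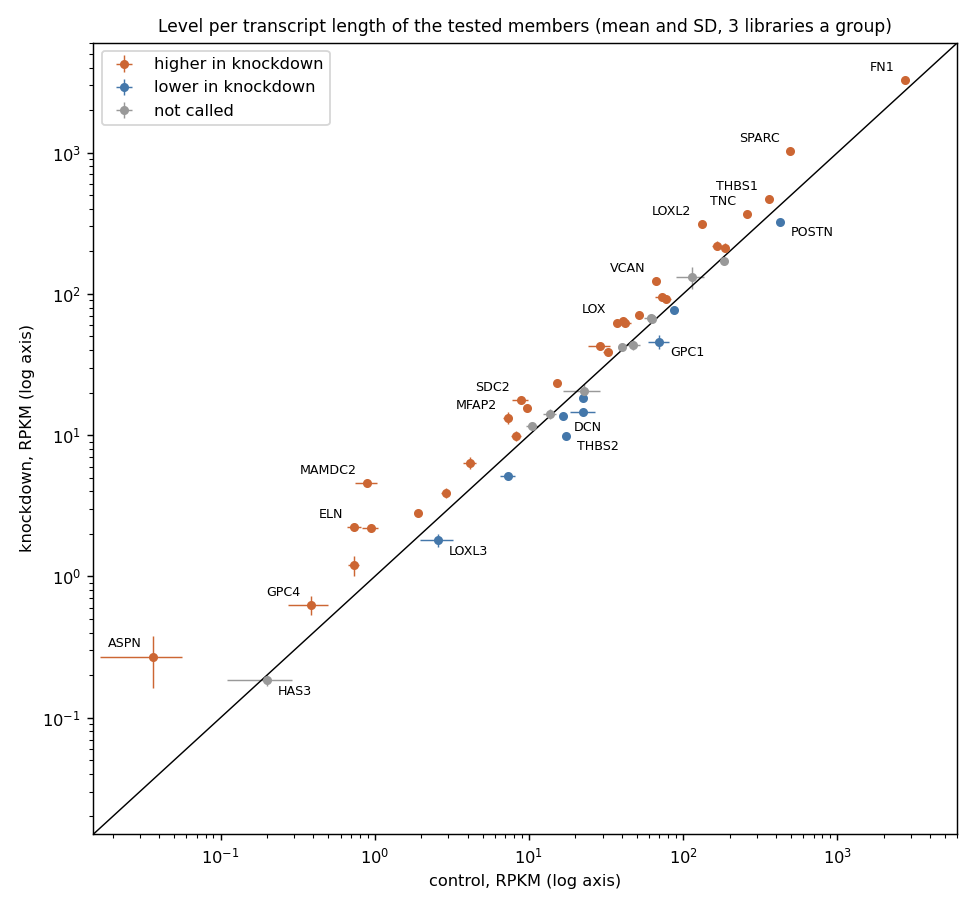
Level per transcript length in control (horizontal) and knockdown (vertical) cells for the 49 tested genes, both axes in RPKM on a log scale, with points at the mean and bars at the SD of 3 libraries. Points above the diagonal are higher in knockdown; LOXL2 and SPARC at high level, and MAMDC2, ELN and MATN2 at low level, lie well above it, as does ASPN with its few reads.

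All 10 tested adhesive and matricellular glycoproteins were called, 7 as higher and 3 as lower, with a median log2 fold change of 0.32. These are secreted proteins that link cells to fibres or tune that contact. FN1 (ENSG00000115414.14, chr2:216225163-216300895 in hg19, minus strand), the fibronectin gene, was read at 24341, 26768 and 24347 RPM in controls and 30923, 29098 and 29412 RPM in knockdowns. Every knockdown library was above every control, by a modest log2 fold change of 0.25 (SE 0.06, limma adjusted p = 0.0061). With GC content and length trends removed, FN1 stood at 0.13 and was not called.

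SPARC (ENSG00000113140.6, chr5:151040657-151066726, minus strand) encodes osteonectin, a collagen-binding protein that loosens cell adhesion. It was at 1755, 1921 and 1817 RPM in controls and 3803, 3843 and 3828 RPM in knockdowns. The knockdown libraries lay within a narrow band at 209% of the control mean, and the log2 fold change was 1.06 (SE 0.04, limma adjusted p = 7.1e-08). TNC, which encodes tenascin-C, rose by a log2 fold change of 0.52, from a mean of 1967 to 2810.4 RPM. ECM1, a secreted glycoprotein that binds perlecan and fibulins, rose by 0.25. POSTN, which encodes periostin, went the other way and fell by 0.39 on the log2 scale, from 1451, 1381 and 1433 RPM to 1120.0, 1079 and 1066 RPM.

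MAMDC2 (ENSG00000165072.9, chr9:72658497-72841886, plus strand), a secreted protein with MAM domains, was scarce in controls, at 3.82, 3.06 and 2.80 RPM. In knockdowns it was at 17.1, 15.5 and 16.8 RPM, or 509.6% of the control mean. Its log2 fold change was 2.36 (SE 0.12, limma adjusted p = 2.0e-07), and it ranked 11 among the rises of all genes tested. More than 10% of its exon bases are shared with antisense transcripts, of which the most read averaged 23 normalized reads beside 309 for MAMDC2. MATN2 (ENSG00000132561.9, chr8:98881068-99048944, plus strand), a matrilin that forms filaments around cells, was at 3.88, 4.33 and 3.42 RPM in controls and 8.34, 9.52 and 9.30 RPM in knockdowns. Its log2 fold change was 1.23 (SE 0.11, limma adjusted p = 1.1e-05), with no overlap between groups.

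The thrombospondins, secreted glycoproteins that bind integrins, CD36 and growth factors, changed in opposite directions. THBS1 (ENSG00000137801.9, chr15:39873280-39891667, plus strand) was at 2709, 2900.2 and 2783 RPM in controls and 3633, 3647 and 3709 RPM in knockdowns. THBS2 (ENSG00000186340.10, chr6:169615875-169654139, minus strand), its closest relative, was at 104, 100.1 and 98.1 RPM in controls and 59.8, 56.9 and 56.2 RPM in knockdowns. Both pairs of groups were apart. THBS1 rose by a log2 fold change of 0.39 (SE 0.04, limma adjusted p = 4.3e-05), and THBS2 fell by 0.81 on the log2 scale (SE 0.05, limma adjusted p = 6.5e-07), the deepest fall in the set. THBS3 also fell, with a log2 fold change of -0.49. More than 10% of the THBS3 exon bases are shared with genes on the other strand. Of these, MTX1 shares 146 bases and averaged 788 normalized reads beside 624 for THBS3.

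Promoter sequences, from 250 bases before to 50 after the start, were taken from RefSeq (GRCh38.p14) and matched by symbol for 43 of the 55 genes. Shown first are MAMDC2, the largest rise among well-read genes, and the 2 thrombospondins that changed in opposite directions, each 5′ to 3′ on the gene's strand. Capitals mark matches, on either strand, to GGAATG (bound by TEAD factors), ACGTG (the core bound by hypoxia-inducible factors), TATAAA (the TATA element) or TGANTCA (bound by AP-1).
MAMDC2 (chr9:70043331-70043630, plus strand): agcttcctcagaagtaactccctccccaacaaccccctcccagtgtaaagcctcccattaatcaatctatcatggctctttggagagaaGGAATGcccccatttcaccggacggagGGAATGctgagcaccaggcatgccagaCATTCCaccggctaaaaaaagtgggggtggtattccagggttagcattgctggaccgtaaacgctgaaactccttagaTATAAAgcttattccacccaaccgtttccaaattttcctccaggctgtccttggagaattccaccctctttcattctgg
THBS1 (chr15:39580829-39581128, plus strand): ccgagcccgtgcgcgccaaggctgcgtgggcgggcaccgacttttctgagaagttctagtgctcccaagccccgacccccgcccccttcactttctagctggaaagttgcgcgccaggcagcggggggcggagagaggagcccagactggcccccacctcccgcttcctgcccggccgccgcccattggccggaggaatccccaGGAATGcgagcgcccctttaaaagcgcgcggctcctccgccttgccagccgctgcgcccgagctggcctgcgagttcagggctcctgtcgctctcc
THBS2 (chr6:169253797-169254096, minus strand): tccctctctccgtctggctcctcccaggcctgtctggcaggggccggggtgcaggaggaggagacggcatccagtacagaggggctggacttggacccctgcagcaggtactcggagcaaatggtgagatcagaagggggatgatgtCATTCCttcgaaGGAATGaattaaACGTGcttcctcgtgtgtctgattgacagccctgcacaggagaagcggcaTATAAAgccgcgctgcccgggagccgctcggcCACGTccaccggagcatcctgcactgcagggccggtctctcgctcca
MAMDC2 held 3 matches to GGAATG and a TATAAA, with the matches nearest to the start at 29 bases before it for TATAAA and 107 for GGAATG. THBS1 held 1 GGAATG, 46 bases before the start. THBS2 held 2 GGAATG, 2 ACGTG and a TATAAA at 29 bases before its start, so the pair shared the GGAATG match while changing in opposite directions. GGAATG occurred in 14.0% of all 27305 promoters of this length and in 8 of the 43 matrix promoters, among them FBN1 and SPARC, which rose, and LOXL3, which fell. TGANTCA occurred in 7.76% of all promoters and in 3 of the 43, and TATAAA in 12.0% and in 8 of the 43. No match marked here shares bases with another motif searched. A match is a description of these letters and not a measured site.

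Of 11 tested elastic fibre and microfibril genes, 8 rose and none was called as lower. Fold changes were above 0 for 10 of the 11, and the median log2 fold change was 0.44. ELN (ENSG00000049540.12, chr7:73442119-73484237, plus strand), the elastin gene, was at 2.67, 2.86 and 3.26 RPM in controls and 8.25, 9.31 and 9.05 RPM in knockdowns. Its knockdown mean was 302% of the control mean, and its log2 fold change was 1.60 (SE 0.11, limma adjusted p = 1.7e-06), although even then it stood at only 2.24 RPKM.

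MFAP2 (ENSG00000117122.9, chr1:17300997-17307330, minus strand), a microfibril-associated glycoprotein that binds fibrillin, was at 18.6, 17.0 and 16.3 RPM in controls and 28.1, 34.2 and 32.0 RPM in knockdowns. Its log2 fold change was 0.86 (SE 0.08, limma adjusted p = 1.6e-05), with no overlap. FBLN2 (ENSG00000163520.9, chr3:13573824-13679922, plus strand), which encodes fibulin-2, was at 19.5, 16.0 and 18.1 RPM in controls and 24.7, 29.4 and 28.8 RPM in knockdowns, a log2 fold change of 0.63 (SE 0.09, limma adjusted p = 0.00025). FBLN1, the fibulin-1 gene, rose by 0.59, and FBN1, the fibrillin of adult microfibrils, rose by 0.56. EFEMP1, MFAP4 and FBLN5 rose by 0.44, 0.38 and 0.26 on the log2 scale. FBLN5 encodes the fibulin that brings elastin to microfibrils and cells.

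FBN2, EMILIN1 and EFEMP2 were not called. EMILIN1 (ENSG00000138080.9, chr2:27301435-27309271, plus strand), a glycoprotein at the elastin and microfibril interface, had the highest level per length of the role. It was at 531, 349 and 466 RPM in controls and 427, 611 and 522 RPM in knockdowns. The groups overlapped, and the log2 fold change of 0.22 had a 95% interval of -0.10 to 0.54 (limma adjusted p = 0.26). The spread of EMILIN1 within a group was wide for its depth: it stood at 0.05 without control replicate 2, 0.09 without knockdown replicate 2, and 0.35 without control or knockdown replicate 1, with no call in any of these. EMILIN1 has a GC content of 67.6%, and log ratios between libraries of a group ran with GC content across the 47 matrix genes that averaged 50 or more normalized reads. For these genes Spearman's rho with GC was 0.49 for control 1 over control 2, -0.63 for knockdown 1 over knockdown 2 and -0.25 for knockdown over control, where all points share the same libraries. With GC content and length trends removed, EMILIN1 stood at 0.42 and was called as higher, as was BGN at 0.29.

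Of 5 tested small leucine-rich proteoglycans, which coat collagen fibrils and set their diameter, 3 rose and 1 fell. Without ASPN, described last, 2 of 4 rose and 1 fell, with a median log2 fold change of 0.41. LUM (ENSG00000139329.4, chr12:91496406-91505608, minus strand), lumican, was at 29.6, 27.9 and 29.9 RPM in controls and 46.7, 46.5 and 46.3 RPM in knockdowns. DCN (ENSG00000011465.12, chr12:91539025-91576900, minus strand), decorin, lies near it on the same chromosome and strand and was at 126, 114 and 119 RPM in controls and 98.7, 99.3 and 93.8 RPM in knockdowns. The neighbours thus moved in opposite directions, each with separated groups. LUM rose by 0.68 on the log2 scale (SE 0.05, limma adjusted p = 3.6e-06) and DCN fell by 0.30 on the log2 scale (SE 0.05, limma adjusted p = 0.00071).

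FMOD (ENSG00000122176.10, chr1:203309756-203320617, minus strand), fibromodulin, was low, at 2.44, 2.20 and 2.60 RPM in controls and 3.27, 4.57 and 4.10 RPM in knockdowns. Its groups were apart and its log2 fold change was 0.71 (SE 0.15, limma adjusted p = 0.0029). BGN (ENSG00000182492.11, chrX:152760397-152775012, plus strand), biglycan, had the highest level per length of these proteoglycans, at 166, 141 and 138 RPM in controls and 154, 173 and 161 RPM in knockdowns. Control replicate 1 lay among the knockdowns, and the log2 fold change of 0.14 (95% interval -0.02 to 0.29) was not called. Without control replicate 1, BGN stood at 0.22 and was called. ASPN, asporin, rests on few reads: 11 over the 3 controls and 49 over the 3 knockdowns, a ratio at equal library size of 6.90 with a 95% interval of 3.54 to 14.7 for counting error only. Its fitted log2 fold change of 2.80 depends on the offset added to the reads and was 1.71 with an offset of 5.

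Both tested large matrix proteoglycans rose. VCAN (ENSG00000038427.11, chr5:82767284-82878122, plus strand), versican, the hyaluronan-binding proteoglycan of loose matrix, was at 823, 877 and 841 RPM in controls and 1649, 1454 and 1559.9 RPM in knockdowns. The groups were far apart and the log2 fold change was 0.87 (SE 0.05, limma adjusted p = 6.0e-07). HSPG2 (ENSG00000142798.12, chr1:22148738-22263790, minus strand), perlecan, the heparan sulfate proteoglycan of basement membranes, was at 127, 109 and 121 RPM in controls and 130.3, 152 and 144 RPM in knockdowns. Its lowest knockdown library was only just above its highest control. The log2 fold change was 0.26 (SE 0.07, limma adjusted p = 0.011). Without the trend of variance with intensity, HSPG2 was not called.

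Syndecans and glypicans carry heparan sulfate at the cell surface and act as co-receptors for growth factors, and they did not move as a group. Of 6 tested, 3 rose, 2 fell and SDC4 was not called. SDC2 (ENSG00000169439.7, chr8:97505579-97624000, plus strand), the syndecan typical of fibroblasts, was at 37.4, 29.2 and 33.0 RPM in controls and 66.3, 69.3 and 64.8 RPM in knockdowns, a log2 fold change of 1.02 (SE 0.08, limma adjusted p = 3.8e-06). SDC1, the syndecan typical of epithelia, fell by 0.27 on the log2 scale, from a mean of 73.4 to 60.8 RPM, and by 0.15, still called, with GC content and length trends removed. SDC4, found at focal adhesions, had a log2 fold change of 0.08 (95% interval -0.02 to 0.17).

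GPC1 (ENSG00000063660.4, chr2:241375088-241407493, plus strand), glypican-1, had the highest level per length of the role in controls. It was at 298, 216 and 267 RPM in controls and 151, 189 and 169 RPM in knockdowns, and fell by 0.61 on the log2 scale (SE 0.11, limma adjusted p = 0.0011). GPC6 (ENSG00000183098.6, chr13:93879095-95059655, plus strand) rose from 101, 96.8 and 95.7 RPM to 150.1, 153 and 152 RPM, a log2 fold change of 0.63 (SE 0.04, limma adjusted p = 1.3e-06). Groups were apart for both, in opposite directions. GPC4 (ENSG00000076716.7, chrX:132434131-132549518, minus strand) was scarce, at 2.56, 1.57 and 1.63 RPM in controls and 2.64, 3.12 and 3.63 RPM in knockdowns. Its log2 fold change of 0.73 (SE 0.20, limma adjusted p = 0.013) lost its call without control replicate 3, at 0.63, and without knockdown replicate 3, at 0.62.

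Neither tested hyaluronan synthase was called. These membrane enzymes extrude hyaluronan, a long unsulfated sugar chain. HAS2 (ENSG00000170961.6, chr8:122624356-122653630, minus strand), the main synthase of fibroblasts, was at 50.6, 60.6 and 59.9 RPM in controls and 64.4, 56.7 and 56.9 RPM in knockdowns. The groups overlapped, and the 95% interval of the log2 fold change ran from -0.11 to 0.23. HAS3 was at 0.470 to 1.23 RPM, too few reads for a narrow interval (-0.71 to 0.69), and 365 of its exon bases are shared with CHTF8 on the other strand, which is read far more often.

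**Figure D3:**
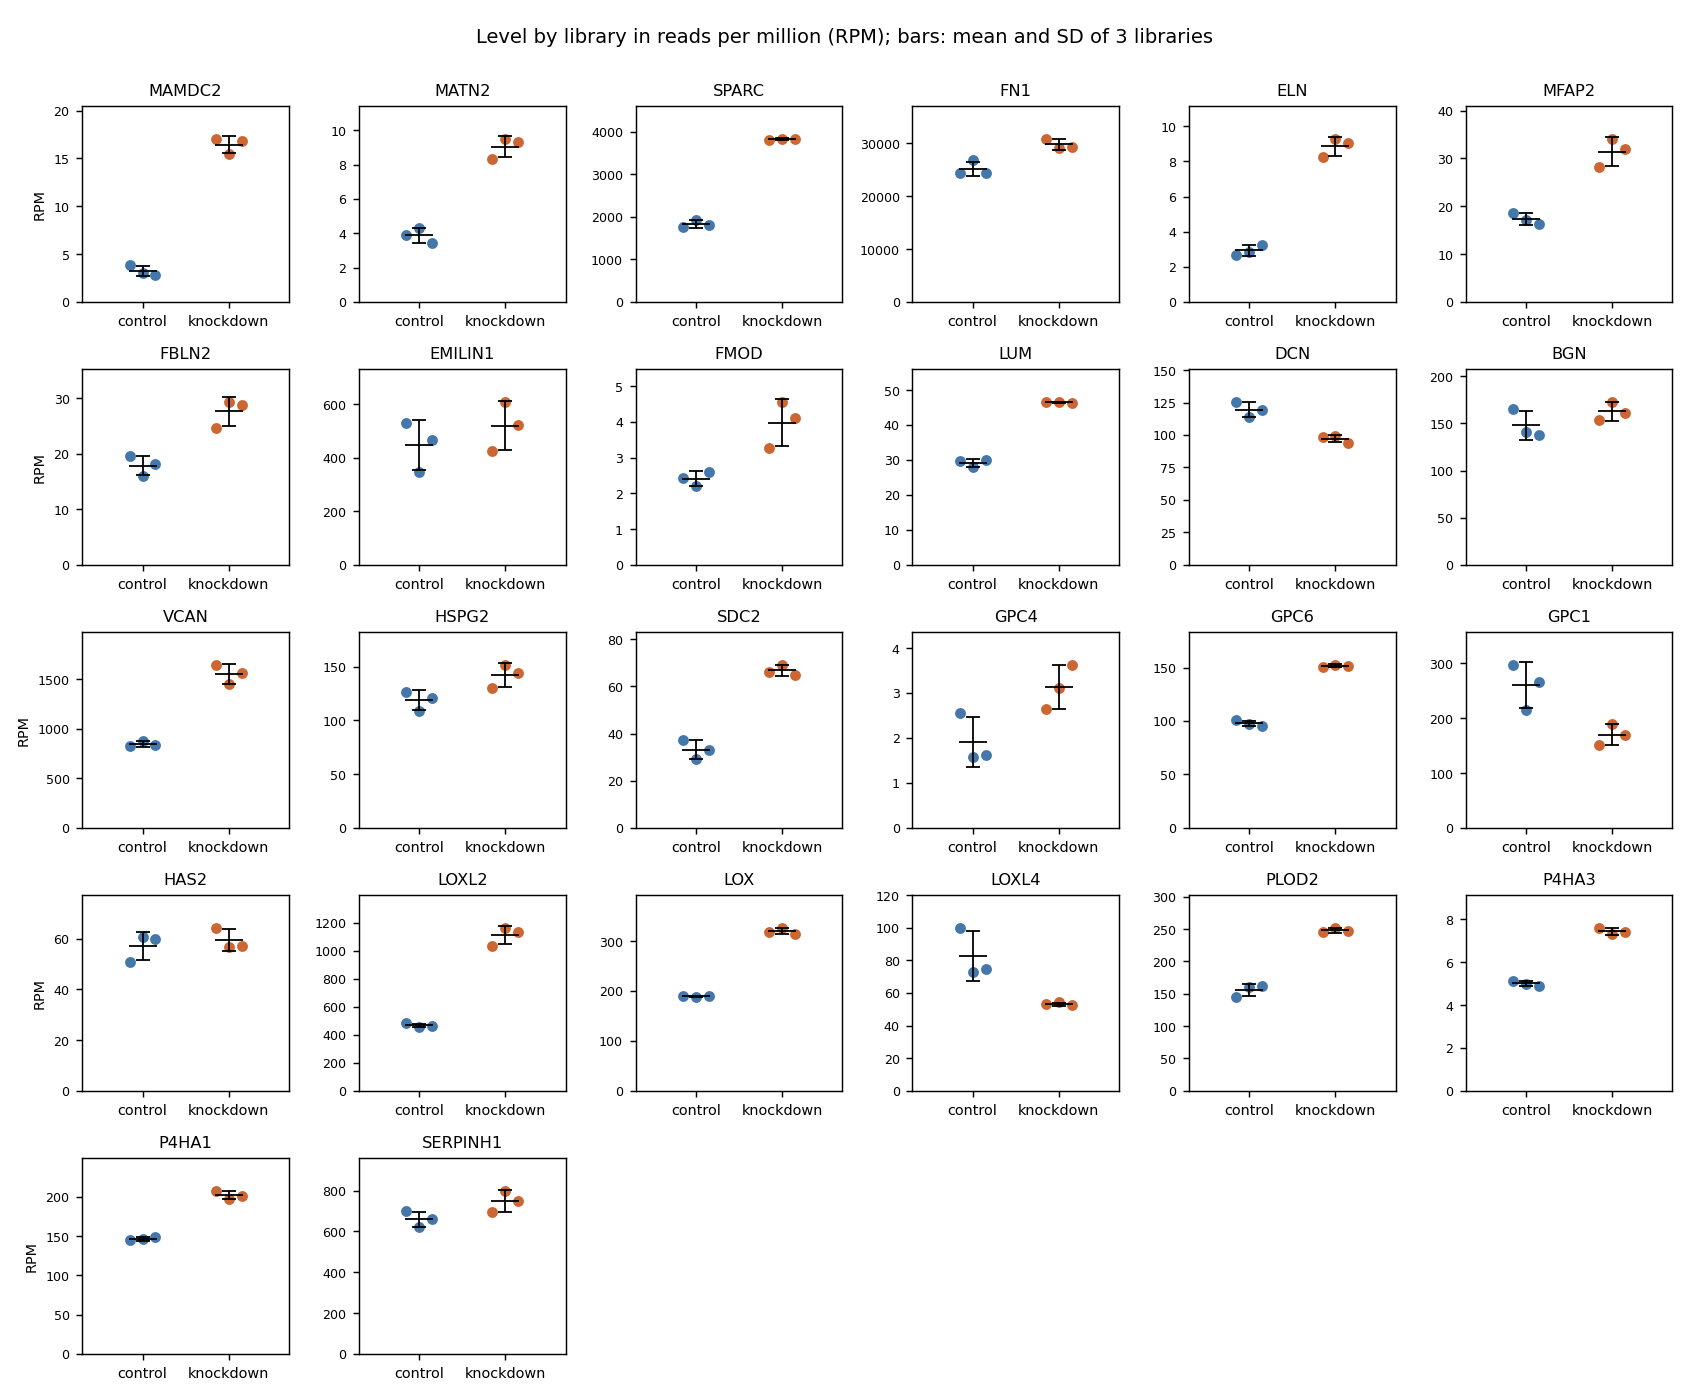
Level in each library, in RPM from 0 on every vertical axis, for the 26 matrix genes chosen by the naming rule, with 3 control and 3 knockdown points and black bars for the mean and SD. SPARC, LUM, LOX, PLOD2 and GPC6 show narrow groups far apart, whereas EMILIN1, HAS2, BGN and SERPINH1 overlap.

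The 5 lysyl oxidases divided: 2 rose, 2 fell and LOXL1 was not called. LOXL2 (ENSG00000134013.11, chr8:23154702-23282841, minus strand), which oxidises collagen IV and other matrix proteins, was at 482, 457 and 464 RPM in controls and 1037, 1165 and 1129.8 RPM in knockdowns. Its log2 fold change was 1.25 (SE 0.05, limma adjusted p = 5.6e-08), and the groups were far apart. It shares 120 exon bases with ENTPD4 on the same strand, which averaged 3991 normalized reads beside 24753 for LOXL2. LOX (ENSG00000113083.8, chr5:121398890-121413980, minus strand), the founding member that acts on fibrillar collagen and elastin, was at 189.7, 188 and 189.9 RPM in controls and 319, 327 and 314 RPM in knockdowns. The control libraries were nearly identical, and the log2 fold change was 0.76 (SE 0.04, limma adjusted p = 2.2e-07).

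LOXL4 (ENSG00000138131.3, chr10:100007447-100028007, minus strand) was at 100.1, 72.6 and 74.6 RPM in controls and 53.0, 54.2 and 52.4 RPM in knockdowns. It fell by 0.62 on the log2 scale (SE 0.10, limma adjusted p = 0.00063), with control replicate 1 above the others and no overlap. LOXL3 fell by 0.49 on the log2 scale (SE 0.15, limma adjusted p = 0.024). Without control replicate 1 LOXL3 stood at -0.30 and without knockdown replicate 1 at -0.39, neither of them called. LOXL3 shares 625 exon bases with HTRA2 and 216 with DOK1, both on the other strand. HTRA2 and DOK1 averaged 537 and 458 normalized reads, beside 241 for LOXL3. LOXL1, which acts on elastin, was at 46.4 to 80.1 RPM in controls and 50.5 to 63.4 RPM in knockdowns, with a 95% interval of -0.45 to 0.24. Without control replicate 2 LOXL1 stood at -0.31 and was called as lower.

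As a share of the family's summed RPKM, LOXL2 went from 58.4%, 63.0% and 61.3% in controls to 75.1%, 76.0% and 76.3% in knockdowns. LOXL4 went from 10.4% ± 1.2 to 3.53% ± 0.17 and LOXL1 from 10.4% ± 2.1 to 4.98% ± 0.30 (SD, n = 3). The share of LOX, at 17.2% ± 1.0 and 15.2% ± 0.7, overlapped between groups although its own level rose. The family's total went from 217 ± 14 to 413 ± 22 RPKM, 1.90 times as high. The exact permutation p is 0.1 for the total and for each share that did not overlap. The shares add up to the whole and are not separate results: LOXL1 lost share although its own level was not called.

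Of 8 tested genes for collagen hydroxylation, folding and processing, 5 rose and 1 fell, with a median log2 fold change of 0.30. PLOD2 (ENSG00000152952.7, chr3:145787227-145881440, minus strand) encodes the lysyl hydroxylase of collagen telopeptides, whose product steers crosslinks toward stable forms. It was at 145, 161 and 162 RPM in controls and 246, 253 and 247 RPM in knockdowns, a log2 fold change of 0.67 (SE 0.05, limma adjusted p = 2.6e-06). PLOD1 and PLOD3, which act on the helical part, did not follow. PLOD1 had a log2 fold change of -0.10 (95% interval -0.18 to -0.01) and was not called although its groups were apart, and PLOD3 had -0.17 (limma adjusted p = 0.033). The call of PLOD3 was lost in 10 of 20 other fits, among them those without control replicate 1 or 3 or without knockdown replicate 1 or 3, and with GC content and length trends removed it stood at -0.02. Without knockdown replicate 1 PLOD3 stood at -0.11. PLOD3 shares 429 exon bases with ZNHIT1 on the other strand.

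Prolyl 4-hydroxylases make the hydroxyproline that stabilises the collagen helix. P4HA1 (ENSG00000122884.8, chr10:74766975-74856732, minus strand), the main catalytic subunit, was at 144, 146 and 148 RPM in controls and 208, 198 and 200.5 RPM in knockdowns, a log2 fold change of 0.47 (SE 0.04, limma adjusted p = 8.7e-06). P4HA3 (ENSG00000149380.7, chr11:73946846-74022702, minus strand) was far scarcer, at 5.14, 4.99 and 4.91 RPM in controls and 7.62, 7.30 and 7.41 RPM in knockdowns, a log2 fold change of 0.57 (SE 0.09, limma adjusted p = 0.00042). Both had narrow groups with no overlap. P4HA3 shares 166 exon bases with PPME1 on the other strand, which averaged 2010 normalized reads beside 195 for P4HA3. P4HA2 had a log2 fold change of 0.08 (95% interval -0.01 to 0.18) and was not called.

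SERPINH1 (ENSG00000149257.9, chr11:75273101-75283828, plus strand) encodes HSP47, the collagen chaperone of the endoplasmic reticulum, and had the highest level per length of the role. It was at 698, 624 and 659 RPM in controls and 693, 801 and 751 RPM in knockdowns, so control replicate 1 was above the lowest knockdown. The log2 fold change of 0.18 (SE 0.06, limma adjusted p = 0.030) lost its call without any of 4 libraries: it stood at 0.14 without control replicate 2, 0.13 without knockdown replicate 2 and 0.18 without control or knockdown replicate 3. PCOLCE, which enhances the trimming of procollagen ends, rose by 0.41 on the log2 scale from a mean of 280.3 to 373 RPM.

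The promoters of LOX, PLOD2 and P4HA1 are shown because these collagen-modifying enzymes rose together and each holds the ACGTG core, with marking and build as for the promoters above.
LOX (chr5:122078210-122078509, minus strand): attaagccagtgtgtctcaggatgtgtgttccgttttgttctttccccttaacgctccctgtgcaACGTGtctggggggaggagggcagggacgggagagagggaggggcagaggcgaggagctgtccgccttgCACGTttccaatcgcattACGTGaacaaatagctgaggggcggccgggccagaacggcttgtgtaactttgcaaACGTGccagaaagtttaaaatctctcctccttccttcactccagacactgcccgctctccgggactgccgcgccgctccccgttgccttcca
PLOD2 (chr3:146161135-146161434, minus strand): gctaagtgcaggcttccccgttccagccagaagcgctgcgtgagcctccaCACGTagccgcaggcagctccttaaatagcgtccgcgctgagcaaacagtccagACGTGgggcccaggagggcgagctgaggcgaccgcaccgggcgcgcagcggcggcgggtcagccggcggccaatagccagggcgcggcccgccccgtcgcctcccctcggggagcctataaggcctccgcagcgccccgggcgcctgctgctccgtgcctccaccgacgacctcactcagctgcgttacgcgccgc
P4HA1 (chr10:73096817-73097116, minus strand): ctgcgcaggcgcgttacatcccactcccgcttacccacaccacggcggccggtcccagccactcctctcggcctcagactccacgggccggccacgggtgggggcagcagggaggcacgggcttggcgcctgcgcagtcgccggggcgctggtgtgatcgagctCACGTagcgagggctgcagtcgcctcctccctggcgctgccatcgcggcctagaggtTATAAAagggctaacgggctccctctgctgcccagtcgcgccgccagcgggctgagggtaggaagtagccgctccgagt
LOX held 4 matches to ACGTG, the nearest 42 bases before the start, PLOD2 held 2 and P4HA1 held 1, beside a TATAAA 29 bases before its start. LOX, PLOD2 and P4HA1 were picked for holding the core, so their matches are no result. The core is short and common: it occurred in 21.6% of all 27305 promoters and in 10 of the 43 matrix promoters (23.3%). Of the 22 matrix promoters of genes called as higher, 6 held it, or 27.3% (FMOD, GPC6, LOX, P4HA1, PLOD2 and SERPINH1). Its letters include CG, and median GC content was 67.7% in the matrix promoters and 58.3% in all. Any link between the core and the rises was not tested. Among 8 promoters of genes called as lower, only that of THBS2 held it.

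Shares within a family add up to the whole, so a gain by 1 member forces a loss by others, and the shares are not separate results. PLOD2 went from 12.2%, 13.7% and 13.4% of the lysyl hydroxylases' summed RPKM to 21.3%, 20.5% and 20.2%, while the family's total was 311 ± 4.5 RPKM in controls and 313 ± 11 in knockdowns. PLOD1 remained the most abundant of the 3, at 59.0% ± 0.7 and 54.7% ± 0.6. P4HA1 went from 55.1% ± 0.8 to 61.2% ± 1.1 of the prolyl hydroxylase subunits, whose total was 1.25 times as high. SDC2 went from 9.37% ± 0.93 to 17.3% ± 0.3 of the syndecans and SDC1 from 23.7% ± 0.8 to 18.0% ± 1.0. GPC6 went from 17.9% ± 2.2 to 33.7% ± 2.3 of the 3 glypicans and GPC1 from 81.7% ± 2.2 to 65.4% ± 2.3 (SD, n = 3 throughout). Groups did not overlap for any of these shares (exact permutation p = 0.1 for each), and were apart for the prolyl hydroxylase and syndecan totals but not for the lysyl hydroxylase and glypican totals.

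Ratios within a pair of genes do not depend on how libraries are scaled. The pairs here were chosen after their values were seen, and the ratios are of RPM, not divided by transcript length. The log2 ratio went from 4.79 ± 0.08 to 5.99 ± 0.06 for THBS1 over THBS2. For SDC2 over SDC1 it went from -1.15 ± 0.18 to 0.14 ± 0.09 (SD, n = 3). The first pair grew more unequal, whereas SDC2 passed from below to about the level of SDC1. LUM over DCN went from -2.04 ± 0.05 to -1.06 ± 0.04, so decorin kept the larger number of reads. Divided by the longest annotated transcript, 7156 bases for DCN and 3008 for LUM, the order turned. Which transcripts were expressed was not measured, so this turn depends on the lengths used. LUM was at 9.68 ± 0.36 and DCN at 16.7 ± 0.81 RPKM in controls, and at 15.5 ± 0.07 and 13.6 ± 0.42 RPKM in knockdowns. SPARC over POSTN went from 0.36 ± 0.10 to 1.81 ± 0.04.

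**Figure D4:**
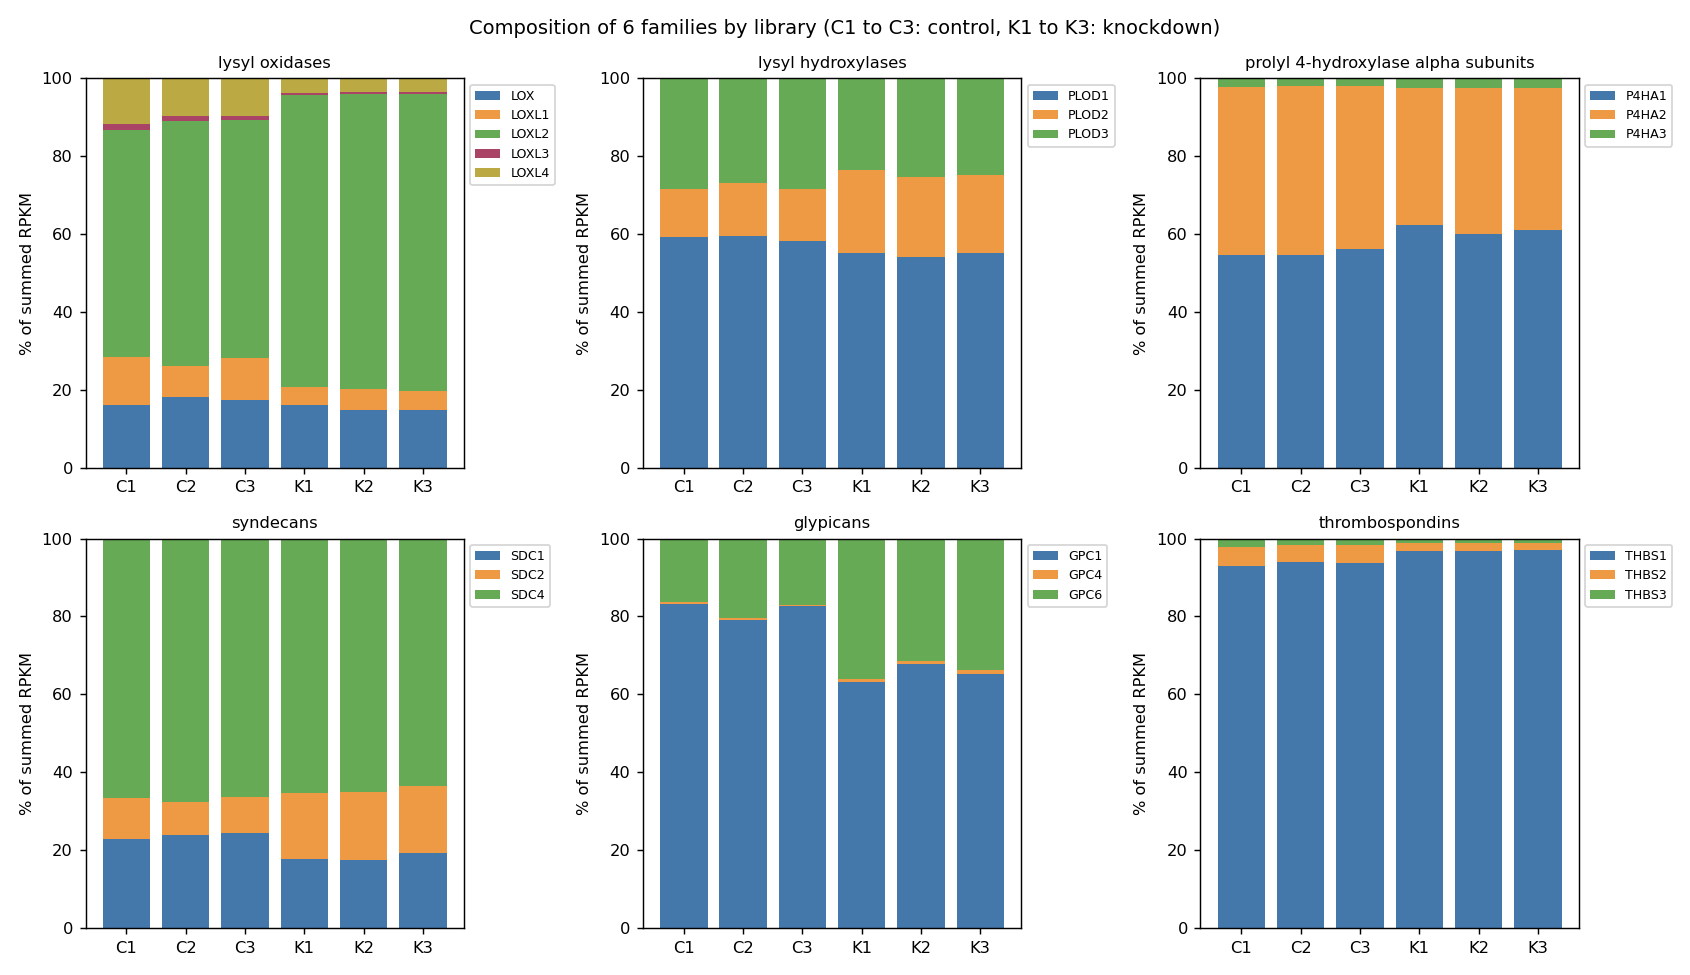
Share of each member in the summed RPKM of its family (vertical axes, percent) in control libraries C1 to C3 and knockdown libraries K1 to K3, for 6 families. LOXL2, PLOD2, P4HA1, SDC2, GPC6 and THBS1 take a larger share in every knockdown library than in any control.

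Not tested were TNXB, MFAP5, OGN, PRELP, ACAN and HAS1, which had 0 to 13 reads in any library. TNXB encodes tenascin-X, ACAN the aggrecan of cartilage, and OGN and PRELP small leucine-rich proteoglycans. Over 3 libraries a group, TNXB had 25 control and 27 knockdown reads and ACAN had 9 and 7. At equal library size, the ratio of knockdown to control reads had a 95% interval of 0.935 to 3.01 for TNXB and 0.382 to 3.64 for ACAN. For MFAP5, with 3 reads in each group, it was 0.208 to 11.6. The interval held 1 for all 6 genes, and at this depth smaller changes were not detectable. Only MFAP5 and HAS1 had libraries without a read, where the count of 0 leaves room for up to 3 reads. That is 0.0999 RPM in control replicate 2 (MFAP5) and 0.134 RPM in knockdown replicate 1 (MFAP5 and HAS1). The intervals and floors cover counting error only.

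Other matrix genes were taken from 5 lists of 139 genes, of which 99 were tested. In all, 44 rose and 16 fell, a called share of 60.6% with a median log2 fold change of 0.15. Of 25 other matrix glycoproteins tested, 12 rose and 2 fell (56.0% called), with a median of 0.38. TGFBI, a collagen-binding adhesion protein, went from a mean of 2343 to 4457 RPM (log2 fold change 0.93), and PXDN, the peroxidase that crosslinks collagen IV, from 1369 to 2255 RPM (0.72). SPON2, spondin-2, rose by 0.83 and SRPX fell by 0.37 on the log2 scale. Of 12 other proteoglycans tested, 4 rose and 1 fell, a called share of 41.7%, near the 41% of all genes tested. PRG4, 1 of the 4 rises and of the 44, was at a mean of 0.278 RPM in controls and 0.986 RPM in knockdowns. It passed the filter on low values through the knockdown libraries alone, so its direction was fixed by that filter. The other genes of the 5 lists were not checked for this. SPOCK1, testican-1, went from 26.5 to 51.3 RPM (0.95), and CSPG4, the transmembrane proteoglycan NG2, fell by 0.42.

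Enzymes that build and sulfate glycosaminoglycan chains split, with 15 of 36 tested higher and 8 lower (63.9% called) and a median of 0.03. SULF2, an extracellular sulfatase that trims heparan sulfate, was at 1.50, 1.40 and 1.15 RPM in controls and 6.10, 6.36 and 6.02 RPM in knockdowns, a log2 fold change of 2.19. CSGALNACT1, which starts chondroitin sulfate chains, went from a mean of 8.59 to 28.7 RPM (1.74), and CHSY3, a chondroitin synthase, from 2.33 to 3.67 RPM (0.65). EXTL1, a glycosyltransferase of the exostosin family, fell by 1.21, DSEL, related to the dermatan sulfate epimerase, by 0.53 and NDST1, which sulfates heparan sulfate, by 0.43 on the log2 scale.

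Of 8 tested genes for hyaluronan binding and turnover, 2 rose and 3 fell (62.5% called), with a median of -0.15, while the synthases were not called. CD44, the main hyaluronan receptor, was at 1360.4, 1413 and 1424 RPM in controls and 673, 652 and 617 RPM in knockdowns, and fell by 1.11 on the log2 scale (SE 0.04, limma adjusted p = 5.6e-08). HMMR, another hyaluronan-binding protein, fell by 0.68 and KIAA1199, which takes part in hyaluronan breakdown, by 0.58. TMEM2, a cell-surface hyaluronidase, rose by 0.69 and HAPLN3, a link protein, by 0.80.

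Other genes of collagen modification and crosslinking were nearer to the enzymes above, with 11 of 18 higher and 2 lower (72.2% called) and a median of 0.33. LEPRE1 and LEPREL1, which are prolyl 3-hydroxylases, rose by 0.89 and 0.90, and BMP1, the protease that trims procollagen and activates LOX, rose by 0.80 on the log2 scale. TGM2, the transglutaminase that crosslinks fibronectin and other proteins, fell by 0.89, from 1031, 989 and 961 RPM to 548, 523 and 539 RPM.

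**Figure D5:**
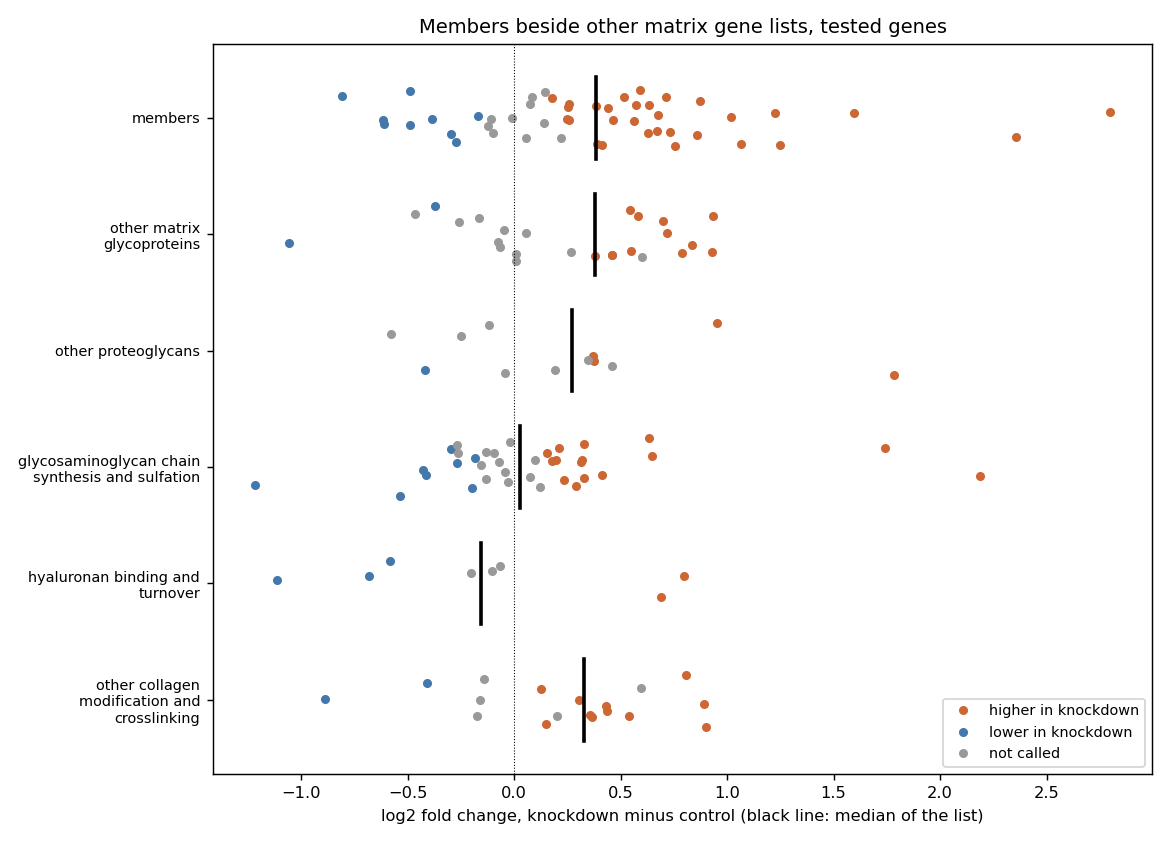
Log2 fold changes (knockdown minus control, horizontal axis) of the 49 tested matrix genes and of 5 further lists of matrix genes, 1 point per gene with colour for the call and a black line at each list's median; vertical scatter within a list has no meaning. Medians run from -0.15 for hyaluronan binding and turnover to 0.38 for the members and for other matrix glycoproteins. Without ASPN, whose direction was fixed by the filter on low values, the members' median is 0.32.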

How the data were processed

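Reads from 6 polyA RNA libraries (50 bp, single-end) were aligned and counted by the authors; the submitters' processing notes name Bowtie2, featureCounts and hg19, without versions, and the strand setting and annotation release are not given in the sources used here. Genes that share exon bases with another gene are therefore uncertain; 26 of the 55 do, 5 of them over more than 10% of their exon bases. The authors deposited 1 table of log2 values: log2 of reads plus 0.5, scaled to 1e+06 reads of an effective library size. Undoing this gave whole reads for 100% of values (tolerance 0.001 reads).

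RPM is recovered reads on that scale, without the 0.5, and RPKM divides it by the longest GENCODE 29 transcript (GRCh38, matched by gene ID); table coordinates are hg19 and none were converted. The deposited log2 values were fitted with limma 3.58.1 (R 4.3.3; lmFit, eBayes with an intensity trend), with group as the sole term, two-sided, for 19048 genes that averaged 10 or more normalized reads; p-values were Benjamini-Hochberg adjusted over all of them and called at 0.05. Every adjusted p in the text is from limma. Fold changes of scarce genes carry the 0.5-read offset, which moves a gene without reads by 0.60 on the log2 scale between groups of unequal depth. In a single draw of simulated counts the fit recovered most of the larger changes, and unchanged genes made up a share of calls somewhat above 0.05. That draw gave every gene the same relative spread and changed few genes. The data differ in both, so its share of false calls does not carry over to the calls here.

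Members and lists were chosen with earlier results of these data known. Values per library are given, in each role, for the 3 called members with the largest fold change, at least 50 normalized reads on average and no overlap between groups, and for the member with the highest control RPKM; other members are named by their fold change. A few members outside that rule have library values because a result turned on them. In each further list up to 3 rises and 3 falls were named by the same rule, and PRG4 was named because of the filter. Alternatives were 20 other fits: offsets, filters, scalings, variance models, thinning to equal depth, GC content and length, a replicate block, and each library left out.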

Additional observations from a re-analysis of the deposited data

How the results depend on the processing

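Over 20 other fits, the number of matrix genes called ran from 35 (no intensity trend, 28 higher and 7 lower) to 40 (no filter on low values), beside 39, and from 36 to 39 with 1 library left out. The number over all genes ran from 5803 to 7330 with 1 library left out, and was 10220 without the filter, when 54.2% of calls were higher, beside 42.6%, since genes without reads sit at 0.60. Of the 39 calls, 32 held in all 20 fits, ASPN held in the 19 that tested it, 6 were lost in some (FN1, PLOD3, SERPINH1, LOXL3, GPC4 and HSPG2) and 0 reversed. Under quantile normalization FN1 was at 0.00, because a gene ranked first in every library gets the same value in each. Of the 10 genes not called, FBN2, EMILIN1, BGN and LOXL1 gained a call in some fit, FBN2 at 0.21 without control replicate 1. The sign turned for 4 genes that were not called. With GC content and length trends removed, HAS2 was at -0.029, LOXL1 at 0.11 and PLOD1 at 0.013. HAS3 was at 0.0088 when scaled to library totals and at 0.017 with median-of-ratios factors. With 1 library left out, HAS2 ran from -0.026 to 0.10, HAS3 from -0.37 to 0.31 and LOXL1 from -0.31 to 0.081. The cause was not tested. Between libraries with equal replicate numbers, the correlation of their deviations from the group mean was -0.15, -0.18 and 0.07 for numbers 1 to 3. Each mean rests on 3 libraries and log ratios within a group ran with GC content. These values therefore cannot decide whether equal numbers mark pairs. With the replicate block, 36 matrix genes (29 higher, 7 lower) and 6454 of all genes were called. Depth limits the genes with few reads, ASPN and HAS3 among those tested.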
